A study of Mus musculus with 12 samples.

Results

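The last interval of a Matrigel culture of MB114 cells, from 15 h to 25 h, was compared across all genes. The comparison took the 3 arrays whose titles give 25 h and the 3 whose titles give 15 h, 6 of the 12 arrays of the series, and used replicate numbers 1 to 3 in the titles as pairs. Of 12393 named genes on the array, 7382 were bright enough to test. MB114 is a mouse line labelled as microvascular endothelium, and Matrigel is a mouse tumour extract of basement membrane proteins that gels and lets endothelial cells line up into cords and networks. The cells had been split 24 h earlier and all cultures were kept on Matrigel; by label they differ only in the hours spent there (1, 5, 15 or 25 h). The groups come from a single cell line without any treatment, and cultures on plastic were not analysed here, so a change with time on the gel and a change with time since splitting cannot be told apart.

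When cells leave the cell cycle, transcripts for DNA replication and mitosis are normally lost together, because E2F factors and the DREAM and MuvB complexes control them in common. A pause in growth also usually lowers genes for ribosome assembly and for amino acid supply. On Matrigel, network formation by endothelial cells is classically described as a process of cell movement and shape change within the first day, so the step between 15 h and 25 h covers the late part of that period.

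Signals are MAS5 intensities in arbitrary units on a linear scale, and means are given ± SD over 3 arrays throughout. Their trimmed means lay between 500.1 and 500.2 on all arrays as deposited, and medians on the 6 arrays ran from 181.0 to 209. With no read depth to go by, the number of arrays (3 per time) is what limits the precision. A gene was called when its adjusted p was under 0.05 in limma, fitted to all 12 arrays with the replicate number as a block and adjusted by Benjamini-Hochberg. The labels call the samples biological replicates without saying what separated them, so the p-values measure the spread between these samples. Ratios of 3' to 5' control probe sets were 0.751 to 0.857 for Gapdh and 1.04 to 1.15 for actin on the 6 arrays. Hybridisation spike-ins stood apart on the arrays numbered 1 (geometric means of 1226 at 15 h and 1271 at 25 h, against 534 to 581 on the other 4), as did the 18S rRNA control (1194 and 710.3 against 114 to 162), at both times alike. Samples with the same number shared their deviations from the time means, with correlations between 15 h and 25 h of 0.593, 0.546 and 0.758.

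The labelled endothelial identity was weak in the signals. Of 25 endothelial markers on the array, 4 were bright enough to test, and their names were Cd34, Gata2, Flt1 and Cdh5. The platelet and endothelial adhesion molecule Pecam1 had a mean of 12.7 ± 1.22 at 15 h and 15.2 ± 2.35 at 25 h, and Vwf, Tie1 and Icam2 were at most 10 on all 6 arrays, below the 25th percentile of all signals (44.9). They were among 7 of the 25 markers with means under that percentile at both times. The brightest, Cd34, had means of 620 ± 113 at 15 h and 607 ± 265 at 25 h. Gata2 had 440 ± 82.9 and 433 ± 89.8. Fibroblast markers were bright, with 12 of 15 above the filter and summed signals of 77260 to 109026 at 15 h and 85095 to 121087 at 25 h. The culture is therefore described by its label, and its genes by their own levels. In such bulk RNA, fewer cells of a type and less RNA per cell cannot be told apart.

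Between 15 h and 25 h, 314 of 7382 genes were called (4.25%), 226 lower (3.06%) and 88 higher (1.19%). The lists with the most genes called lower were mitosis and DNA replication, followed by ribosome biogenesis and the ATF4 amino acid response. Among the genes called higher were those for clusterin, a selenium carrier, an Fc receptor and calponin, and no list had more than 4 genes called higher. A change of 2-fold or more was reached by 129 of the called genes, and all 314 changed the same way in all 3 pairs. Samples of the 2 times did not overlap for 258 of them, against 1048 of all genes (14.2%). The median change over all genes was 0.00 on the log2 scale.

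**Figure D1:**
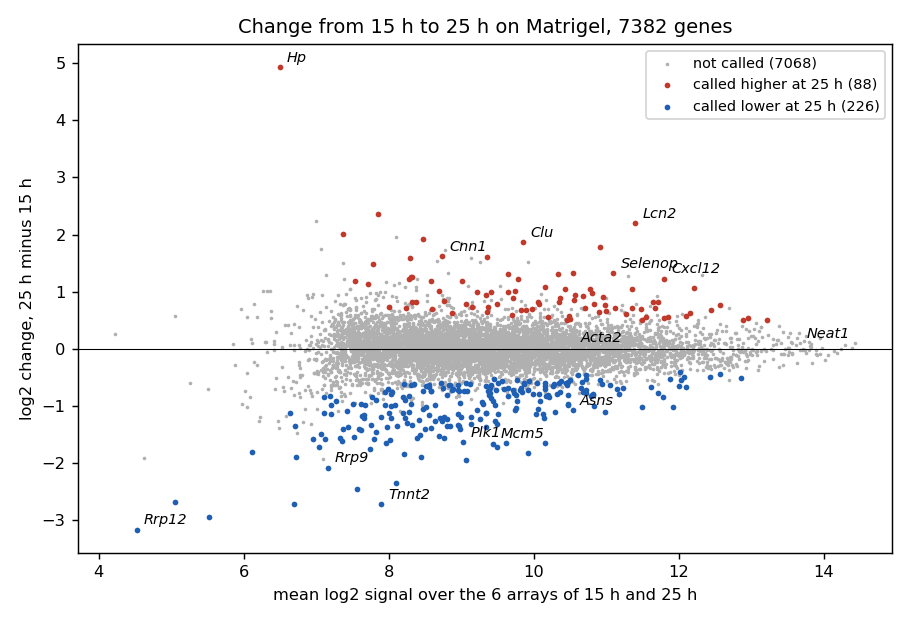
Each point is 1 of 7382 genes, with its mean log2 signal over the 6 arrays of 15 h and 25 h on the horizontal axis and its log2 change (25 h minus 15 h) on the vertical axis. Red points are the 88 genes called higher and blue points the 226 called lower; grey points were not called, and the dimmest genes hold some of the largest changes (Hp, Rrp12).

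The call rests on the pairing and on single arrays. Without the replicate block limma called 57 genes, 55 lower and 2 higher, each of which was also called with the block. Leaving out 1 array lowered the count most for 15 h replicate 1 (94 genes, 81 lower), 15 h replicate 2 (154), 25 h replicate 1 (169) and 25 h replicate 2 (172). Of the 314 calls, 90 held whichever of the 12 arrays was left out. The direction of all 314 was the same in each of 26 alternative settings.

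Genes of mitosis fell together. Of 37 tested members of a list for mitosis and the G2/M transition, 33 were called lower and 0 higher (3.06% of all genes were called lower), and the median change was -1.22 on the log2 scale, against 0.00 over all genes. The median member was lower in each pair, by -0.89, -1.08 and -1.46 for numbers 1, 2 and 3. All 37 members had a change below 0. Plk1, the polo-like kinase that drives entry into and passage through mitosis, had signals of 1014, 837 and 916 at 15 h and 375, 274 and 252 at 25 h. Its 15 h samples lay wholly above its 25 h samples, and its mean fell from 922 ± 88.4 to 300.3 ± 65.5 (3.11-fold, log2 change -1.64 ± 0.15 SE, limma adjusted p = 0.000169). Its fall was called in all 26 alternative settings, among them the fit without the block (adjusted p = 0.00121).

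Other mitotic genes showed the same separation of samples. Top2a, the topoisomerase that untangles chromosomes, had signals of 2350.5, 2353 and 1488 at 15 h and 839, 769.7 and 413 at 25 h (3.14-fold lower, adjusted p = 0.000368). Ttk, the spindle checkpoint kinase also named Mps1, went from 488, 503 and 344 to 153, 187 and 96.8 (3.13-fold lower, adjusted p = 0.00088). Bub1, a kinetochore kinase of the same checkpoint, went from 610.0, 701 and 410.1 to 187, 244 and 83.7 (3.58-fold lower, adjusted p = 0.00135). For none of these did the samples of the 2 times overlap, and the array numbered 3 was the lowest of its time. Ube2c, which feeds the anaphase-promoting complex, fell 3.15-fold, from 1424 ± 385 to 484 ± 224. Incenp, a scaffold of the Aurora B complex, fell 2.41-fold, from 1103 ± 103 to 459 ± 57.8. Ccna2, cyclin A2, fell 2.31-fold, from 1748 ± 402 to 768 ± 229. The calls for these 6 genes held without the block (adjusted p between 0.00249 and 0.0372).

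Several of the largest falls outside both lists were also those of cell division genes. Ccnf, cyclin F, had signals of 326, 345 and 546 at 15 h and 108, 129 and 114 at 25 h, a 3.38-fold fall with adjusted p = 0.000368. Shcbp1, a protein of the central spindle, had 652, 673 and 693 and then 249, 223 and 106, a 3.72-fold fall with adjusted p = 0.000765. Both gave samples that did not overlap. Sgo1, the shugoshin that guards centromeric cohesion, fell 5.48-fold, from 446 ± 72.1 to 111 ± 80.2, with a dim value of 22 on the 25 h array numbered 3. Its fall was 3.51-fold with an offset at the 25th percentile of signals and 2.96-fold without that array, and it was no longer called without 15 h replicate 1 or without the block (adjusted p up to 0.0638 and = 0.0906). Hmgb2, a chromatin protein of dividing cells, fell 3.28-fold, from 1323 ± 266 to 449 ± 238 (adjusted p = 0.00403).

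**Figure D2:**
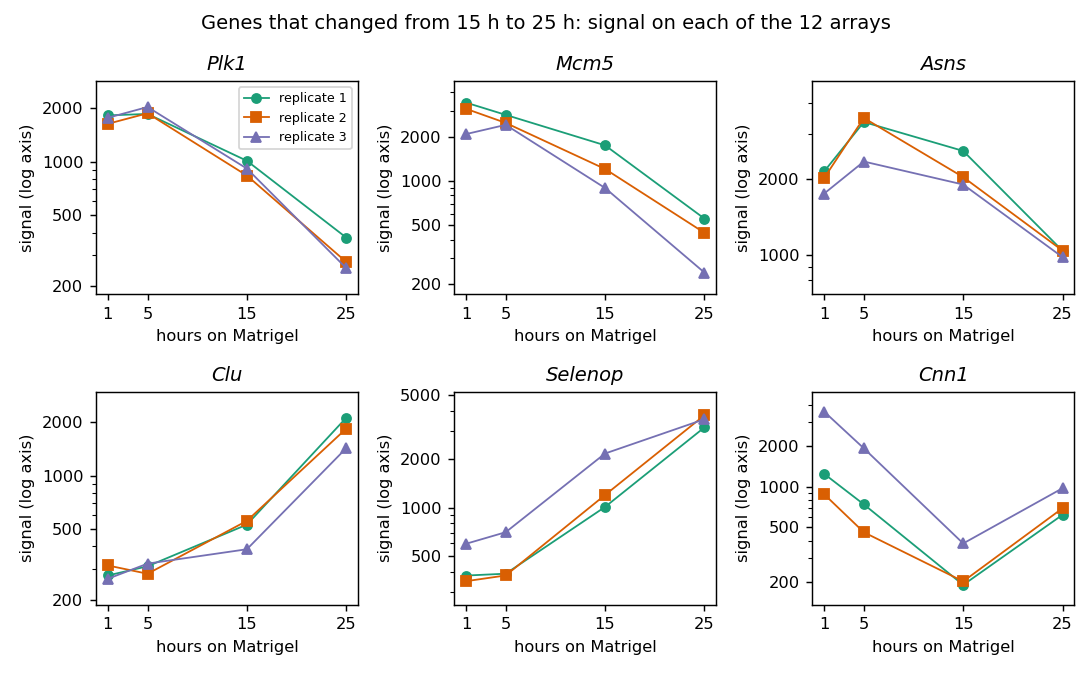
Each panel shows the signal of 1 gene (log axis) on the 12 arrays against hours on Matrigel, with lines joining arrays of the same replicate number. Plk1, Mcm5 and Asns are lower on all 25 h arrays than on all 15 h arrays, Clu and Selenop are higher, and Cnn1 rises again after its fall from 1 h to 15 h.

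DNA replication genes fell in the same interval. Of 33 tested members of a list for replication and the G1/S transition, 24 were called lower (72.7%, against 3.06% of all genes) and 0 higher. The median change was -0.98, and all 33 were below 0. The pair medians were -0.96, -0.85 and -1.16. Mcm5, a subunit of the replicative helicase, had signals of 1748, 1208 and 898 at 15 h and 557, 446 and 240.0 at 25 h, and these did not overlap. Its mean fell 3.17-fold, from 1285 ± 430.0 to 414 ± 161 (limma adjusted p = 0.000368). Mcm3 of the same helicase fell 2.55-fold, from 743 ± 146 to 296 ± 85, and 2 of its 3 other tested probe sets shared the call. Within each pair the fall of both subunits was clear, but the arrays numbered 3 began and ended lower than the others.

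Tk1, Rrm2 and Pole were among the largest falls in the replication list or, for Pole, outside it. Tk1, the thymidine kinase of dividing cells, had signals of 1558, 1114 and 671 at 15 h and 446, 419.5 and 109.9 at 25 h (3.84-fold lower, adjusted p = 0.000765). Rrm2, the regulated subunit of ribonucleotide reductase, went from 2354, 2349.5 and 1093 to 750.3, 789 and 228 (3.55-fold lower, adjusted p = 0.000965). Pole, the catalytic subunit of a leading-strand DNA polymerase, went from 1074, 674 and 328 to 242, 195 and 37.6 (5.12-fold lower, adjusted p = 0.00237). Samples did not overlap for any of the 3, yet the replicates of one time spread widely, and their calls needed the block (adjusted p = 0.139, 0.0989 and 0.126 without it). Cdt1, a licensing factor of origins, fell 1.96-fold, from 2036 ± 550.2 to 1061 ± 377, and likewise needed the block (adjusted p = 0.325). Rrm1, the other subunit of ribonucleotide reductase, fell 2.16-fold (adjusted p = 0.0398; 0.146 without the block), and Dut, which breaks down dUTP, fell 1.67-fold (adjusted p = 0.0363; 0.343 without the block). These last 2 were named after their values were seen.

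The counts for both lists depended on the block and on single arrays, while their medians did not change sign. Without the block 14 mitosis genes and 7 replication genes were called lower. Without 15 h replicate 1 the counts were 19 and 12, and without 15 h replicate 2 they were 21 and 14. On the arrays numbered 3 both lists were lowest at both times, with a median mitosis signal of 703 at 15 h and 238 at 25 h, against 785 and 866 and then 405 and 406 on the arrays numbered 1 and 2. Between 5 h and 15 h, a step that shares the 15 h arrays, the medians were -0.83 for mitosis and -0.76 for replication, and between 1 h and 5 h they were 0.02 and -0.28. The difference between the steps of 5 to 15 h and 15 to 25 h was called for 0 members of either list. Among 23 tested p53 targets and inhibitors of cyclin-dependent kinases, 0 were called in either direction, which with 4.25% of all genes called is near the background. Of these 23, 8 were level within 1.5-fold (34.8%, against 49.4% of all genes), so a change cannot be set aside for most.

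**Figure D3:**
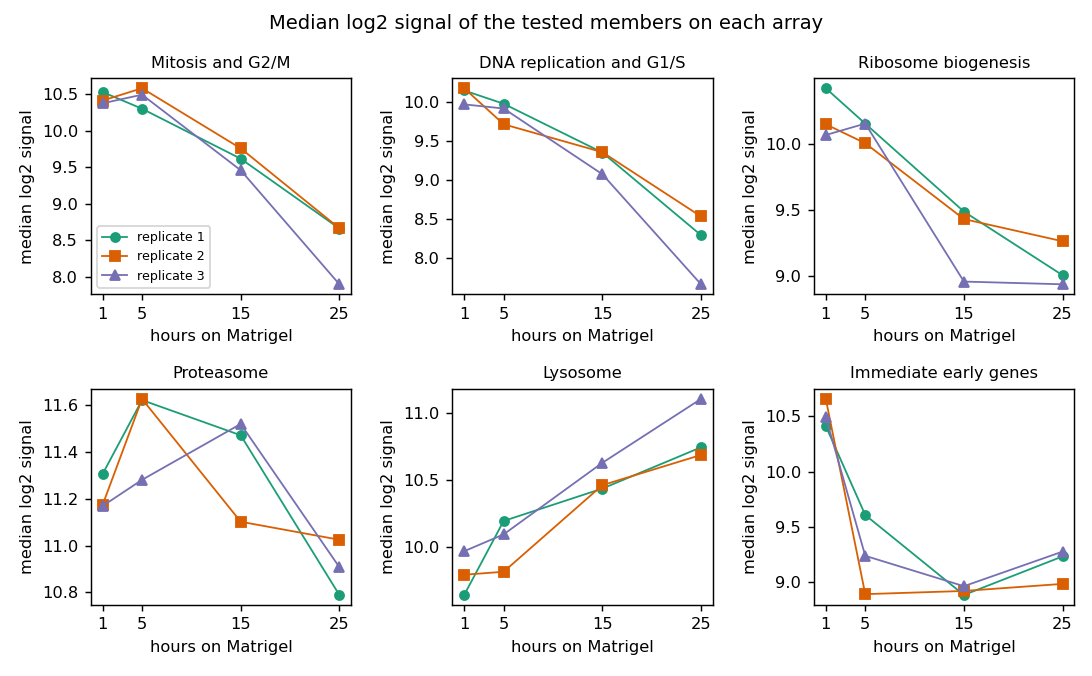
Each panel plots the median log2 signal of a list's tested members on each of the 12 arrays against hours on Matrigel, with lines joining arrays of the same replicate number. Mitosis and replication fall from 5 h through 25 h in all 3 replicates, ribosome biogenesis falls mostly before 15 h, lysosome genes rise through 25 h, and immediate early genes have reached their low level by 5 h to 15 h.

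Promoters of the falling cell cycle genes are shown because the motifs that MuvB, NF-Y and E2F complexes read lie close to the start site. The sequences are from RefSeq on build GRCm38.p6 and end at or shortly before the annotated start, written 5' to 3' on the gene's strand. Capitals mark the CCAAT box read by NF-Y (CCAAT or its complement ATTGG), the cell cycle homology region (TTTGAA or TTCAAA) and, in Mcm5, the E2F site (TTTNNCGC or GCGNNAAA, overlapping each other there). Cdk1, the mitotic kinase, was added after its values were seen because it carries both mitotic motifs more than once; it fell 2.20-fold (adjusted p = 0.00313; 0.0611 without the block).
Top2a, chr11:99024200-99024299, minus strand, bases 110 to 11 before the start: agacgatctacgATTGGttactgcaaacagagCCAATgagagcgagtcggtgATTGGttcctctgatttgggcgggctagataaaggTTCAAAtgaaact
Plk1, chr7:122159335-122159434, plus strand, bases 100 to 1 before the start: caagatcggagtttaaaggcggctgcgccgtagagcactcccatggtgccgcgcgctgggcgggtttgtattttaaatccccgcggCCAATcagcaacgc
Ube2c, chr2:164769829-164769928, plus strand, bases 100 to 1 before the start: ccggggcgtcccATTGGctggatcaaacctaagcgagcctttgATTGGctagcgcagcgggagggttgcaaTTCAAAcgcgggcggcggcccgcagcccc
Cdk1, chr10:69352913-69353012, minus strand, bases 100 to 1 before the start: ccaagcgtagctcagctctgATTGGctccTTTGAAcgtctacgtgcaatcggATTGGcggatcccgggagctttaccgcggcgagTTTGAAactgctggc
Mcm5, chr8:75109349-75109448, plus strand, bases 160 to 61 before the start: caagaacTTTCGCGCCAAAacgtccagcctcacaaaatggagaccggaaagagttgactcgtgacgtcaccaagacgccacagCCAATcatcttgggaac

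The CCAAT box occurred in the 250 bases before the start of 25 of 30 mitosis genes that had a RefSeq promoter (83.3%) and of 17 of 31 replication genes (54.8%), against 2490 of 6052 tested genes with one (41.1%). Its share was 58.3% (14 of 24) in the ATF4 amino acid response list and 33.3% (11 of 33) in ribosome biogenesis, so the replication share is not particular to cell cycle genes. The cell cycle homology region occurred in 13 mitosis genes (43.3%) and 2 replication genes (6.45%), against 12.4% of tested genes. The E2F site occurred in 3 mitosis genes (10%) and 8 replication genes (25.8%), against 9.09%. Both strands were searched. These are letter matches, which do not show that a factor bound. Both lists were drawn up from known cell cycle genes, so their shares may not be independent of the motifs.

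Some genes of amino acid synthesis and transport fell. Of 28 tested genes of the ATF4 amino acid response, 7 were called lower (25%, against 3.06% of all genes) and 0 higher. Without the block 3 were called lower. Level were 7 members (25%, against 49.4% of all genes). The list's median was -0.30, with 8 members above 0. Asns, asparagine synthetase, had signals of 2581, 2033 and 1900.3 at 15 h and 1039.8, 1041 and 981 at 25 h, without overlap. Its mean fell 2.11-fold, from 2172 ± 361 to 1021 ± 34.4 (limma adjusted p = 0.000833; 0.0189 without the block), and its level at 15 h had been within 1.5-fold of that at 1 h. Slc7a5, the light chain of the large neutral amino acid transporter, had 1054, 1004 and 649 and then 476, 368 and 257, a 2.48-fold fall without overlap (adjusted p = 0.000351).

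The other called members of that list included enzymes that handle serine and folate. Mthfd2, of mitochondrial folate metabolism, fell 2.22-fold, from 1101 ± 257 to 488 ± 34, and its call held without the block (adjusted p = 0.0419). Phgdh, the first enzyme of serine synthesis, fell 2.00-fold, from 2643 ± 693 to 1392 ± 581. Shmt2, which passes serine carbon to folate, fell 2.08-fold, from 1612 ± 569 to 797 ± 334, although its highest 25 h sample (994) was above its lowest 15 h sample (968). Psat1, also of serine synthesis, and Slc7a11, the cystine transporter, both named after their values were seen, fell too (1.79-fold and 2.25-fold). Psph, the last enzyme of serine synthesis, named likewise, was not called (change -0.60, adjusted p = 0.0746). Without the block, Phgdh, Shmt2, Psat1 and Slc7a11 were not called (adjusted p = 0.29, 0.303, 0.15 and 0.29). Without all arrays numbered 1, 1 member of the list was called lower.

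The Asns promoter is shown for its amino acid response element, a site of ATF4, in capitals (TGATGNAA; the complement was searched too). The element was found in 7 of 24 promoters of the list (29.2%), against 133 of 6052 tested genes (2.2%). The list was drawn up from known ATF4 targets, so its share is not independent of the motif.
Asns, chr6:7693210-7693269, minus strand, bases 60 to 1 before the start: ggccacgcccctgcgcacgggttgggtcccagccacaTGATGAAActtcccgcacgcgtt

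Some aminoacyl-tRNA synthetases and ribosome factors were also called lower. All 18 tested synthetases, which charge tRNAs with amino acids, had a change below 0, with a median of -0.45. Called lower were 3 of them (Aars, Cars and Tars), or 16.7%, against 3.06% of all genes. The count was 0 without the block and 0 without 15 h replicate 1, 15 h replicate 3, 25 h replicate 1 or 25 h replicate 2. Of 39 tested ribosome biogenesis genes, 9 were called lower (23.1%) and 16 were level (41%, against 49.4% of all genes). Their median was -0.28, against -0.85 for the step from 5 h to 15 h. Rrp9, a component of the U3 small nucleolar particle, had signals of 331, 295 and 260.2 at 15 h and 46.3, 67.2 and 108 at 25 h, a 4.23-fold fall without overlap (adjusted p = 0.000588; 0.00249 without the block). Rrp12, which helps export ribosomal subunits, had 71.6, 85.4 and 53.4 and then 9.80, 5.90 and 7.80. Its 25 h values are under the 25th percentile of all signals, so its 8.98-fold change shrank to 2.17-fold with an offset at that percentile. The count of 9 was 2 without the block, 15 h replicate 1 or 25 h replicate 1, 4 without 15 h replicate 2, and 5 without 25 h replicate 2 or 1 h replicate 2.

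The lists of the proteasome and of the lysosome, the main systems of protein breakdown, had medians of opposite sign. Of tested proteasome genes 10.7% were called lower, against 3.06% of all genes. Of tested lysosome genes 8.11% were called higher, against 1.19% of all genes. Each share rests on 3 genes. All 28 tested proteasome genes had a change below 0, with a median of -0.35, and 3 were called lower (Psmc5, Psma1 and Psmc1) and 8 were level. The proteasome median was -0.49, -0.02 and -0.55 in pairs 1, 2 and 3, so the pair numbered 2 was near 0. Psmc5, an ATPase of the proteasome cap, had signals of 2865, 2398 and 3551 at 15 h and 1569.7, 1651 and 2175 at 25 h, without overlap (1.63-fold lower, adjusted p = 0.031). Of 37 tested lysosome genes, 34 had a change above 0, with a median of 0.37; 3 were called higher (Ctsa, Arsa and Npc2), 0 lower and 10 level. Ctsa, a carboxypeptidase that protects other lysosomal enzymes, had 2434, 2265 and 2986 and then 3888, 3695 and 5086, without overlap (1.64-fold higher, adjusted p = 0.0106). Arsa, arylsulfatase A, rose 1.55-fold, from 1537 ± 84.6 to 2394 ± 242 (adjusted p = 0.0293). Without the block, 0 genes of either list were called. The proteasome count was also 0 without 15 h replicate 1, 15 h replicate 3 or 25 h replicate 1 and 1 without 25 h replicate 3. The lysosome count was 0 without 15 h replicate 1 and 1 without any one of the 25 h arrays.

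**Figure D4:**
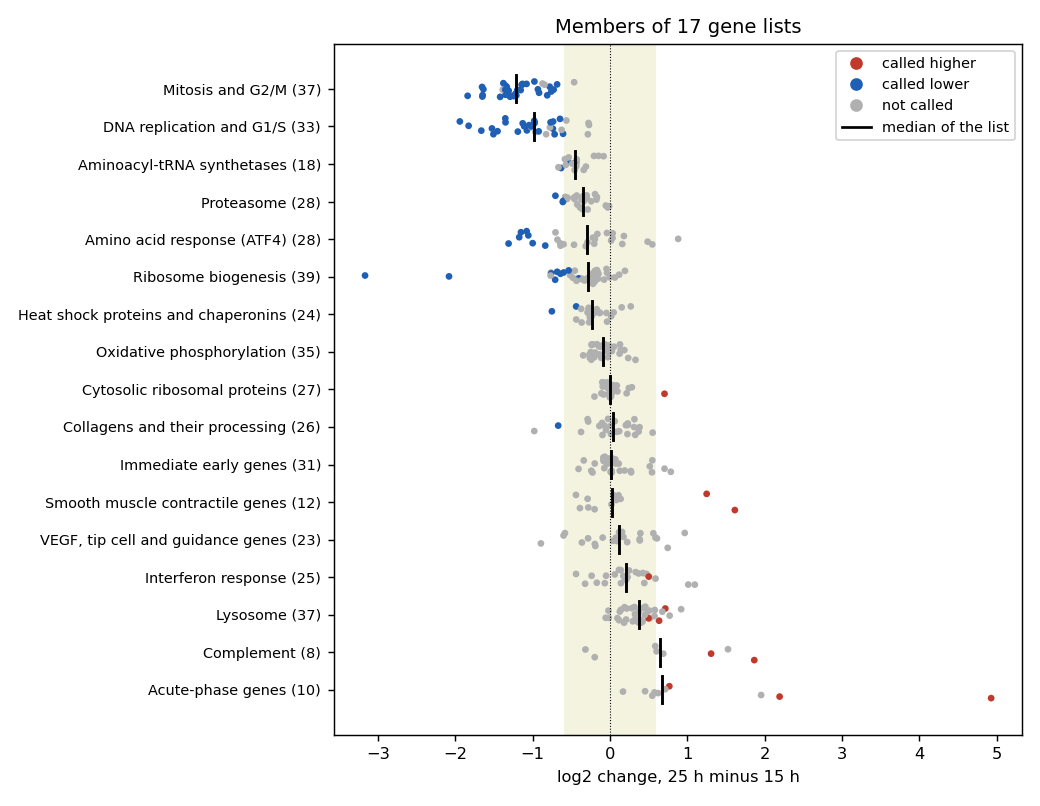
Points are the tested members of 17 gene lists (number in brackets), placed by their log2 change (25 h minus 15 h); red and blue points were called higher and lower, grey ones were not called, and bars mark list medians. The band spans 1.5-fold either way. Mitosis and replication lie to the left of 0 throughout, and lysosome, complement and acute-phase genes mostly to the right.

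Clusterin was 1 of the 2 genes called higher both with and without the block. Clu, an extracellular chaperone that also holds back complement, had signals of 529.8, 556 and 385 at 15 h and 2110.5, 1834 and 1425 at 25 h. All its 25 h samples were far above its 15 h samples, and the mean rose 3.65-fold, from 490.4 ± 92 to 1789.7 ± 345 (log2 change 1.87 ± 0.17 SE, limma adjusted p = 0.000169; 0.00121 without the block). Its 3 other tested probe sets were also called higher, and the call held in all 26 alternative settings. Its mean had been 283 at 1 h and 303 at 5 h.

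Other secreted and innate defence genes rose with more spread. C1ra, a protease of the first complement component, had 655, 616 and 1372 at 15 h and 1939, 1432 and 3030.3 at 25 h (2.48-fold higher, adjusted p = 0.022), without overlap. Lcn2, lipocalin 2, which binds bacterial iron carriers, had 567, 707 and 4964 and then 4341, 3643 and 12080.1 (4.58-fold, adjusted p = 0.0327). Its samples overlapped, because the 15 h array numbered 3 was already above both lower 25 h arrays. Hp, haptoglobin, had 6.30, 6.80 and 102 and then 399.7, 532 and 581 (adjusted p = 0.0437). The low 15 h values make its fitted fold unsafe, and with an offset at the 25th percentile of signals the rise was 7.45-fold. Cp, ceruloplasmin, rose 1.70-fold, from 5144 ± 3045 to 8349 ± 3639 (adjusted p = 0.0479), with overlapping samples. All 10 tested acute-phase genes had a change above 0 (median 0.67), and 3 of them were called, as were 2 of 8 complement genes (median 0.65). Over all genes 1.19% were called higher. The count of 3 was 0 without 15 h replicate 1 or 2 or 25 h replicate 1 or 2, and the count of 2 was 1 without 15 h replicate 1 or 25 h replicate 1 or 2.

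None of these calls other than that of Clu held without the block (adjusted p = 0.45 for C1ra, 0.542 for Lcn2, 0.133 for Hp and 0.806 for Cp). Leaving out 15 h replicate 1 or 3, or 25 h replicate 1 or 2 ended the call for C1ra, with adjusted p up to 0.176. The same held for Lcn2 with 15 h replicate 1 or 2, or 25 h replicate 1 or 2 (up to 0.252), for Hp with 15 h replicate 1 or 2, or 25 h replicate 1, 2 or 3 (up to 0.29) and for Cp with 1 h replicate 3, 15 h replicate 1, 2 or 3, or 25 h replicate 1 or 2 (up to 0.237). The fitted fold for Hp was 77.9 without 15 h replicate 3, 19.6 without 15 h replicate 1 and 18.6 without 15 h replicate 2.

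Selenop, the selenoprotein that carries selenium in plasma, had signals of 1011, 1198 and 2166 at 15 h and 3142, 3735 and 3531 at 25 h. The samples did not overlap, and the mean rose 2.51-fold, from 1458 ± 619.8 to 3469 ± 301 (limma adjusted p = 0.00144; 0.0906 without the block). Fcgrt, the Fc receptor that recycles antibody and albumin, had 334, 436 and 892 and then 944, 1037 and 2021, a 2.48-fold rise without overlap (adjusted p = 0.00135; 0.264 without the block). Both rises were called whichever single array was left out. The array numbered 3 was the highest of its time for Fcgrt at both times.

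A matrix gene and a chemokine gene were called higher with rises beyond 2-fold. Fbln1, fibulin 1 of elastic fibres and basement membranes, had 767, 925 and 1248 at 15 h and 1633, 1627 and 2943 at 25 h (2.07-fold higher, adjusted p = 0.00262; 0.15 without the block). Cxcl12, the chemokine that attracts cells with the receptor Cxcr4, had 1746, 1676 and 4260.4 and then 5848, 4306 and 6388 (2.35-fold higher, adjusted p = 0.00462; 0.35 without the block, and up to 0.0537 without 15 h replicate 1). Neither gene's samples overlapped, and Cxcl12 had been level, within 1.5-fold, between 1 h and 15 h. Fbln1 was the 1 gene called higher of 11 tested elastic fibre genes (9.09%, against 1.19% of all genes). Cxcl12 was 1 of 2 called higher among 29 tested inflammatory genes (6.9%). Another matrix gene, Tnc, tenascin C, fell 1.77-fold, from 2409 ± 718 to 1352 ± 327 (adjusted p = 0.00303; 0.355 without the block).

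Among oxidoreductases, Xdh, which makes urate, had 303, 379 and 464 at 15 h and 1041, 721 and 1994 at 25 h (3.04-fold higher, limma adjusted p = 0.0123). Cbr2, a carbonyl reductase, rose 3.42-fold, from 1366 ± 1266 to 3797 ± 1712, with overlapping samples (adjusted p = 0.0321). Gclc, which limits glutathione synthesis, fell 1.82-fold, from 945 ± 303 to 532 ± 239 (adjusted p = 0.00474). Of 33 tested genes of the NRF2 and glutathione list, 4 were called higher, 2 lower and 10 level. Over all genes 1.19% were called higher, 3.06% were called lower and 49.4% were level. The 4 higher calls became 0 without replicate 1 of either time, 1 without replicate 2 and 2 without replicate 3, and the 2 lower ones became 1 without any single array of 15 h or of 25 h except 25 h replicate 3, and 4 without 5 h replicate 1. Without the block 0 genes of the list were called (adjusted p = 0.276 for Xdh, 0.661 for Cbr2 and 0.399 for Gclc). Leaving out 15 h replicate 1 or 3, or 25 h replicate 1 or 3 ended the call for Xdh (adjusted p up to 0.0858), and leaving out 15 h replicate 1, 2 or 3, or 25 h replicate 1 or 2 ended that for Cbr2 (up to 0.243).

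Some genes turned back in the last step. Cnn1, calponin of the smooth muscle contractile apparatus, had means of 1891 at 1 h, 1036 at 5 h and 257 at 15 h, and then rose to 761 at 25 h. Its signals were 189, 201 and 382 at 15 h and 619.5, 693 and 972 at 25 h, without overlap (3.07-fold higher, limma adjusted p = 0.0026; 0.29 without the block). Myl9, the regulatory light chain of smooth muscle myosin, had 144, 132 and 473 and then 306, 338 and 1172. Its samples overlapped because the arrays numbered 3 were higher at both times, but within each pair it rose, 2.38-fold on average (adjusted p = 0.00237; 0.731 without the block). Of 12 tested contractile genes 3 were level (25%, against 49.4% of all genes), and the list's median was 0.03. Cnn1 and Myl9 were the 2 called higher (16.7%, against 1.19% of all genes), and 0 were called lower. Acta2, smooth muscle actin, did not turn with them: its means of 8189 at 1 h and 5375 at 5 h gave way to 1657 at 15 h and 1671 at 25 h.

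The opposite course was taken by Tnnt2, cardiac troponin T. Its mean was 75.1 at 1 h, 722 at 5 h and 725 at 15 h, and its signals went from 1069.7, 859 and 246 at 15 h to 119, 235 and 28.2 at 25 h. Samples did not overlap, and the fall was 6.59-fold (limma adjusted p = 0.00277; 0.222 without the block). Cspg4, the NG2 proteoglycan of pericytes, fell 2.34-fold, from 1010.0 ± 477 to 429 ± 190.1 (adjusted p = 0.00401; 0.299 without the block), after means of 592 at 1 h and 1658 at 5 h. Its 15 h and 25 h samples overlapped, although it fell in all 3 pairs. Hmgn5, a nucleosome-binding protein, was level from 1 h to 15 h and then fell 2.40-fold, from 667 ± 111 to 277 ± 40.2 (adjusted p = 0.00261; 0.0481 without the block).

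Both 10 h steps were compared directly. The change from 15 h to 25 h differed from that from 5 h to 15 h for 74 of 7382 genes (1.00%, limma adjusted p under 0.05). For 40 of them the steps had opposite signs: 27 rose and then fell, and 13 fell and then rose, by their fitted changes. For another 29 the fitted rise slowed, for 5 (Cd44, Fabp5, Tagln, Tfrc and Timm8a1, named after their values were seen) the fitted fall slowed, and for 0 a fall became steeper. The genes were selected by this difference, and both steps use the 15 h arrays with opposite sign, which favours opposite signs, so these counts describe the selected genes only. The difference was called for 4 of the 12 contractile genes. For Acta2 it was 1.74 (adjusted p = 0.00641), with a change of -1.72 in the earlier step and 0.02 in the last. This count is fragile: it was 0 without the block (556 genes with an unadjusted p under 0.05, against 1183 with it) and fell to 1 without 15 h replicate 1 or 15 h replicate 3, 12 without 15 h replicate 2, 9 and 31 without 25 h replicates 2 and 1, 27 without 1 h replicate 1 and 39 without 5 h replicate 1.

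Many genes were level in the last step, both among those that had moved earlier and among those that had not. A gene was counted as level where the 95% interval of its log2 change lay within 0.585 of 0, that is within 1.5-fold either way. By that measure 3650 of 7382 genes (49.4%) were level from 15 h to 25 h. The median width of the interval was 0.77, so a gene outside the band was not thereby shown to change. Of 2969 genes called between 1 h and 15 h (40.2%), a comparison that shares the 15 h arrays, 1345 were level afterwards (45.3%). They were 882 of 1855 that had risen (47.5%) and 463 of 1114 that had fallen (41.6%). Of the 1855 that had risen, 57 were called higher again (3.07%) and 13 lower (0.701%). Of the 1114 that had fallen, 147 were called lower again (13.2%) and 5 higher (0.449%). Over all genes 1.19% were called higher and 3.06% lower. Of the 4413 not called between 1 h and 15 h, 2305 were level (52.2%). Of the 930 that had moved 2-fold or more, 225 were level (24.2%). Their median interval was wider (0.97, against 0.77 for all genes), which alone makes the band harder to meet. The lower share of level genes by itself thus does not show that more of them still changed. Called in the last step were 35 of these 930 higher (3.76%) and 57 lower (6.13%), against 1.19% and 3.06% of all genes. Of 573 genes called between 1 h and 5 h (7.76%), which shares no array with the last step, 263 were level (45.9%). Among these 573, 12 were called higher (2.09%) and 17 lower (2.97%, near the 3.06% of all genes). Without the block, 2082 genes were level, 746 of them among those 2969 genes.

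Neat1, the long noncoding RNA of nuclear paraspeckles, had risen from a mean of 3272 at 1 h to 12722 ± 2882 at 15 h. Its signals were 16042, 10853 and 11273 at 15 h and 17989, 10795 and 12455 at 25 h, a change of 0.10 with a 95% interval of -0.16 to 0.36. The samples overlapped throughout, and it was level in all 26 alternative settings. Loxl3, an enzyme that crosslinks matrix, went from 274 at 1 h to 1239 ± 153 at 15 h and 1449 ± 21.5 at 25 h (interval -0.11 to 0.58). Mxd4, a Max partner that opposes Myc, went from 267 to 1298 ± 355 and 1300.1 ± 302 (interval -0.47 to 0.50). Nfatc4, a calcium-regulated transcription factor, went from 309 to 1519.8 ± 129 and 1808 ± 249.9 (interval -0.09 to 0.58). Level status was kept by Loxl3 in 15, Mxd4 in 18 and Nfatc4 in 11 of the 26 settings, and all 3 lost it without the block and without 15 h replicate 1.

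Acta2 had the largest earlier fall among the bright genes that were called lower between 1 h and 15 h and then level. Its signals were 1209, 983 and 2779 at 15 h and 1122, 1102 and 2791 at 25 h, with nearly the same value in each pair (95% interval -0.27 to 0.31). It was level in 25 of 26 settings, all but the fit without the block. Tfrc, the transferrin receptor, had means of 3017 at 1 h and 3074 at 5 h, then 962 ± 48.6 at 15 h and 835 ± 84.9 at 25 h (interval -0.48 to 0.06); it lost its level status when its probe sets were averaged, without 15 h replicate 1 and without all arrays numbered 1. Mafk, a small Maf protein, went from 991 at 1 h to 265 by 5 h and kept means of 311 ± 34.4 at 15 h and 309 ± 27.6 at 25 h (interval -0.39 to 0.37). Ier5, an early response gene, went from 2339 at 1 h to 783 ± 63.1 at 15 h and 745 ± 69.4 at 25 h (interval -0.41 to 0.27).

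**Figure D5:**
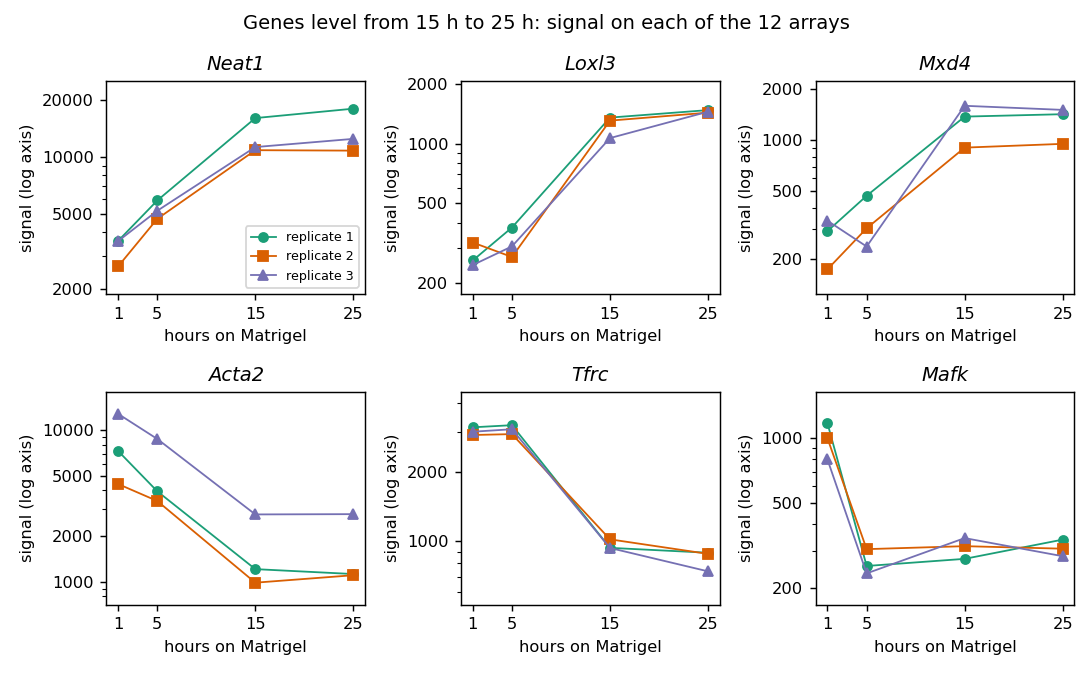
Each panel shows the signal of 1 gene (log axis) on the 12 arrays against hours on Matrigel, with lines joining arrays of the same replicate number. Neat1, Loxl3 and Mxd4 rise, and Acta2, Tfrc and Mafk fall, before 15 h; from 15 h to 25 h the 95% interval of each lies within 1.5-fold of no change.

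Ribosomal proteins, oxidative phosphorylation and translation factors were among the lists with a share of level genes above the 49.4% of all genes. Others were heat shock proteins and chaperonins (62.5%) and autophagy genes (60%). Of 27 tested cytosolic ribosomal proteins, 24 were level, with a median of -0.00; Rps6 was the 1 called higher (1.63-fold; adjusted p = 0.0491, 0.22 without the block). Its probe set was dim (mean 237 at 15 h), and it lost the call without any one of 10 of the 12 arrays, all except 5 h replicate 3 and 25 h replicate 3 (adjusted p up to 0.269). Of 35 oxidative phosphorylation subunits 30 were level (median -0.08), and of 21 translation factors 14 were (median -0.16). The medians in pairs 1, 2 and 3 were -0.12, 0.21 and -0.10 for ribosomal proteins. For oxidative phosphorylation they were -0.18, 0.29 and -0.25, so in both lists the pair numbered 2 went the other way. Ribosomal proteins were bright, with median signals of 6425 to 9210 on the 6 arrays. Whether narrower intervals of bright genes raised these shares was not tested. Among 31 immediate early genes, the first to answer a stimulus, 13 were level (41.9%, below that share) and 0 were called (4.25% of all genes were), with a median of 0.02 after -0.96 between 1 h and 5 h. Of 26 genes for collagens and their processing 13 were level and 1 was called lower, Col6a3 (1.59-fold; adjusted p = 0.0266). Without the block the level counts were 8 for ribosome biogenesis, 3 each for proteasome and lysosome, 4 each for the NRF2 list and p53 targets, 19 for oxidative phosphorylation, 8 for translation factors, 4 for immediate early genes and 7 for collagens, and Col6a3 was not called (adjusted p = 0.29). Its call was also lost on leaving out 15 h replicate 1, 2 or 3, or 25 h replicate 1 or 2 (adjusted p up to 0.147). For immediate early genes the level count was 4 to 7, and for p53 targets 2 to 5, without any one of the 15 h or 25 h arrays; ribosome biogenesis had 8 without 15 h replicate 3 and 9 without 25 h replicate 2, the proteasome 4 without replicate 2 of either time, the lysosome 6 without 25 h replicate 2 and the NRF2 list 6 without 15 h replicate 3.

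Genes classically tied to angiogenesis were also examined. Of 23 tested genes for VEGF signalling, tip cells and guidance, 13 Notch genes, 10 integrins and 14 basement membrane genes, 0 were called in either direction, which with 4.25% of all genes called is near the background. Of the 4 lists 2, 6, 4 and 6 members were level (2 integrins and 3 basement membrane genes without the block; 3 Notch genes without replicate 2 of either time; 6 of the first list without 5 h replicate 3 and 1 without 25 h replicate 2). The remaining members of these lists were neither called nor level, so at this precision a change of more than 1.5-fold cannot be set aside for them. Vegfa, the main endothelial growth factor, had signals of 1960.1, 2086 and 756 at 15 h and 1159, 1699 and 739 at 25 h, with overlapping samples and an interval of -0.90 to 0.18. Angpt2, a ligand of Tie2 that loosens vessels, had 675, 616 and 677 and then 1103, 969 and 848, which did not overlap, with an interval of -0.04 to 1.17 and adjusted p = 0.338. Both were singled out after their values were seen. Efnb2, an ephrin of arterial endothelium, had the smallest p of the first list, with a change of -0.89 and adjusted p = 0.103. Among 26 matrix proteases and inhibitors, Plaur, the urokinase receptor, fell 1.54-fold, from 706 ± 195 to 449 ± 57.9 (adjusted p = 0.0228; 0.29 without the block), a call lost on leaving out 15 h replicate 1 or 2, or 25 h replicate 1, 2 or 3 (up to 0.198). Mmp3, stromelysin, had a change of 1.59 and adjusted p = 0.0532.

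Markers of cell types gave few calls, among few tested. None of the 4 tested endothelial markers was called, and the summed signal of all 25 was 2424 to 2746 at 15 h and 2439 to 3290 at 25 h. Thy1, a surface protein of fibroblasts, rose 1.87-fold, from 1509.6 ± 519 to 2758 ± 622 (limma adjusted p = 0.0129; 0.355 without the block). It was the 1 call among 12 fibroblast markers (8.33%, against 4.25% of all genes). The call was lost on leaving out 15 h replicate 1 or 3, or 25 h replicate 2 (adjusted p up to 0.0724). Of the 12 fibroblast markers, 6 were level (50%, against 49.4% of all genes), or 3 without the block. Of 5 tested pericyte and smooth muscle markers, Cnn1 was called higher and Cspg4 lower, as given above, with a median of -0.28. Summed signals of all 12 such markers were 4641 to 6709 at 15 h and 4428 to 6319 at 25 h. Summed leukocyte markers were 6288 to 6501 at 15 h and 7535 to 11619 at 25 h. Most of that was Cd14, a coreceptor for bacterial lipopolysaccharide, which rose 1.61-fold, from 4372 ± 227 to 7206 ± 2083 (adjusted p = 0.0266; 0.15 without the block; up to 0.184 on leaving out 15 h replicate 1, 2 or 3, or 25 h replicate 1 or 2). The other 2 tested leukocyte markers were not called, and the list's median was -0.08. Csf1r, the receptor of macrophage growth factors, had 1266, 1549.8 and 1106 at 15 h and 869.8, 979.7 and 859.9 at 25 h, lower without overlap (change -0.52, adjusted p = 0.437; called in 1 of 26 settings, that with only the 6 arrays). Of 8 adipocyte markers the 2 tested, Fabp4 and Cebpa, were not called, with a median of 0.93 that was above 0 in all 3 pairs. The pan-leukocyte gene Ptprc stayed dim, with means of 14.7 at 15 h and 29.8 at 25 h. Of 12 epithelial markers, 0 were bright enough to test. The part of any other cell type in the acute-phase and complement changes was not tested.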

How the data were processed

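RNA from 12 cultures was measured, 3 each at 1, 5, 15 and 25 h on Matrigel. The authors deposited linear intensities for each probe set; the submitters' processing notes name MAS5, whose version and settings the sources used here do not give. After trimming 2% at each end, their mean was 500.1 to 500.2 on each array, so no further scaling was applied. Of 22690 probe sets, 64 controls and 1 with missing values were left out of the tests. GEO's platform annotation, which can be old, gave 1 symbol to 20380, several to 691 and none to 1555; 20351 matched RefSeq by Entrez ID and 0 symbols changed. Probe sets were kept that attained 183.0, the median signal over all arrays, on 3 or more of the 12, and the brightest of a gene stood for it (11656 probe sets, 7382 genes).

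Signals were log2-transformed, and limma 3.58.1 in R 4.3.3 fitted 1 mean per time with the replicate number as a block on 12 arrays (6 residual degrees of freedom, eBayes with an intensity trend, 2-sided, Benjamini-Hochberg over all tested genes). The numbers in the titles pair the samples: deviations from the time means correlated for each of 18 pairs of samples with the same number (0.328 to 0.758). Values without the block are given beside results whose call it ends or whose count it moves by over 1.5 times. The design compared 25 h with 15 h, bounded changes by their 95% interval, and tested both 10 h steps against each other. On simulated signals of 7382 genes, with 200 changed by known folds, the fit for 25 h against 15 h recovered 6 of 50 changes of 1.5-fold, 33 of 50 of 2-fold, 42 of 50 of 3-fold and 50 of 50 of 4-fold, with 3 calls among 7182 unchanged genes. Of those 7182 unchanged genes, 4615 counted as level, so many unchanged genes miss the band. The simulation drew independent noise for each gene and array around means fitted to the real arrays with the replicate block. It therefore cannot show false calls from a wrong block, from noise shared between genes or from a deviant array.

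Named genes are the 15 largest rises and falls among called genes with non-overlapping samples and a higher mean of at least 304.7 (the 60th percentile), the 5 smallest p-values at most in each list, the 10 largest earlier rises and falls that were then level, the 8 largest rises and falls that had been level before, the 5 largest step differences each way, and defining markers. The text names part of these, and states where it names another. The comparison, the 47 gene lists and the rules were chosen with earlier results of these data known. The alternatives were another block, pseudocount, filter, scaling, variance model, probe set rule, array weights, and fewer arrays. Promoters are RefSeq's, matched by symbol for 6052 of 7382 genes.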

Additional observations from a re-analysis of the deposited data

Results flagged for a closer look

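The change from 15 h to 25 h was tested against the change from 5 h to 15 h within the same limma fit, and 74 genes passed that test of the difference between both steps. The difference is given as the log2 change of the last step minus that of the step before. It was largest upward for Cnn1 (3.45) and Myl9 (3.33), which fell and then rose. Sema7a (3.12), a membrane-bound guidance cue, Stk10 (3.06), a kinase of lymphocyte adhesion, and Stc1 (2.43), the secreted glycoprotein stanniocalcin 1, had fallen from 5 h to 15 h and were not called in the last step. Downward it was largest for Wnt16 (-3.26), a Wnt ligand, Deptor (-2.78), an inhibitor of mTOR, Car12 (-2.64), a membrane carbonic anhydrase, Pfkfb3 (-2.41), an activator of glycolysis, and Kank3 (-2.40), a cortical scaffold. All 5 had risen from 5 h to 15 h and were not called in the last step. For Wnt16 the 15 h signals were 114, 179 and 1597, so a single array holds most of its mean. No gene was called for this difference without the replicate block, and what causes it was not tested.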

How the results depend on the processing

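With the pairing dropped (no replicate block), the counts were 57 genes called, 2 higher and 55 lower, 2082 level, 746 level among those called between 1 h and 15 h, 0 step differences, 7 replication genes and 14 mitosis genes. With only the 6 arrays of 15 h and 25 h, 632 genes were called (272 higher, 360 lower), and with array weights 596 (205 higher, 391 lower) with 258 step differences. With all arrays numbered 1 left out, 60 genes were called (6 higher, 54 lower), 2219 were level (807 among those called earlier), 1 step difference, 8 replication genes and 17 mitosis genes were called. Step differences numbered 17 with no filter, 25 with median centring, 27 with no intensity trend and, in an alternative chosen after seeing the data, 12 with all arrays numbered 3 left out. In a 2-fold band 6453 genes were level, 2485 of them among those called earlier. Leaving out 1 array gave 94 to 356 calls, 13 to 105 higher and 81 to 251 lower, 1 to 100 step differences, 12 to 25 replication genes and 19 to 33 mitosis genes, and 2439 to 3844 level genes. Of 6788 comparisons of named genes with an alternative, 515 lost a call, 137 gained one and 0 reversed. All 314 called genes went one way in all 3 pairs, so a reversal was hardly possible. Array number and the spread between replicates limit which changes can be called, also above 2-fold.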

Other observations

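Several rises belonged to none of the larger groups. Mme, the membrane peptidase neprilysin, rose from 109 ± 44.2 to 555 ± 209, without overlap (limma adjusted p = 0.022; 5.13-fold, and 9.05-fold without 25 h replicate 3). Dio2, a deiodinase that activates thyroid hormone, rose 3.00-fold, from 200.2 ± 114 to 557 ± 136. Aldh3a1, an aldehyde dehydrogenase, rose 4.01-fold, from 83.3 ± 15.3 to 334 ± 59.4, and Dcxr, a xylulose reductase, rose 2.52-fold, from 1091 ± 750.1 to 2389.6 ± 544. Nbl1, a secreted BMP antagonist, rose 2.12-fold, from 809 ± 279 to 1715 ± 580.2. Their limma adjusted p-values lay between 0.0148 and 0.031 with the block and between 0.0989 and 0.354 without it. Leaving out 15 h replicate 1, 2 or 3, or 25 h replicate 1 or 2 ended the call for Mme (adjusted p up to 0.156), 15 h replicate 1 or 2, or 25 h replicate 1, 2 or 3 that for Dio2 (up to 0.169), 15 h replicate 1, 2 or 3, or 25 h replicate 1, 2 or 3 that for Aldh3a1 (up to 0.205), 15 h replicate 1, or 25 h replicate 1 or 2 that for Dcxr (up to 0.096) and 15 h replicate 1, 2 or 3, or 25 h replicate 1, 2 or 3 that for Nbl1 (up to 0.188).

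Among 21 glycolysis and hypoxia genes, 8 were level (38.1%, against 49.4% of all genes), or 5 without the block. Called were 2 (9.52%, against 4.25% of all genes). Bnip3, a mitophagy receptor, rose 1.85-fold, from 640.5 ± 234 to 1167 ± 319.9. Tpi1, triose phosphate isomerase, rose 1.54-fold, from 3667 ± 87.3 to 5653 ± 582. Both calls needed the block (adjusted p = 0.215 and 0.186 without it, against 0.0138 and 0.0227 with it). Leaving out 15 h replicate 1 or 2, or 25 h replicate 2 or 3 ended that for Bnip3 (up to 0.111), and leaving out any one of the 15 h or 25 h arrays ended that for Tpi1 (up to 0.179). Khk, ketohexokinase, which had been level from 1 h to 15 h, rose 2.20-fold, from 144 ± 30.9 to 314 ± 44.2 (adjusted p = 0.0098; 0.0833 without the block, and up to 0.0703 on leaving out 15 h replicate 1 or 2, or 25 h replicate 2).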
